A study of Saccharomyces cerevisiae YPS1009 with 18 samples.

Results

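The nuclear pore complex genes described here are a list of 32 Saccharomyces cerevisiae genes chosen by name and known function. No measured value was used in the choice, but earlier results of these data were known when it was made. The list comprises nucleoporins, the pore-associated mRNA export factors GLE1 and GLE2, and KAP95 and SRP1, the subunits of the classical import receptor. Of the 32 genes, 29 had a row among the 4872 plasmids of the count table, and NUP157, NUP188 and GLE1 were not analysed here. SRP1 was listed at 0 in all 18 libraries. The other 28 had counts, and 27 of them passed the filter on low counts, among 4508 plasmids tested. NUP170 was the member with counts that did not pass.

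Plasmids came from the MoBY collection. A centromere keeps each of them at low copy, each holds 1 yeast gene with its native flanking sequence, and a DNA barcode tracks it. The host was the haploid oak-soil isolate YPS1009, and the question of the screen was which extra gene copies alter survival of cells with a duplicated chromosome over a long culture in rich medium with G418, the drug that keeps the plasmid. AGY1612 (MATa ho-Δ1 his3-Δ) carries a duplication of chromosome XII, with His3MX6 and NatMX marking its copies, and was sampled at T0, day 1 and day 28. AGY1611 (MATa ho-Δ1, NatMX at the same site on chromosome XII) is its euploid counterpart and was sampled at the same times. Each of these 6 groups had 3 replicates, drawn from 2 independent transformations whose assignment to replicates the labels do not give. The p-values measure the spread between these replicate libraries. For each plasmid that spread was fitted over all 18 libraries, T0 included, so it is not the spread between day 1 or day 28 cultures alone. Each ploidy was represented by 1 strain, and AGY1612 differed from AGY1611 in his3-Δ and its marker as well as in chromosome number. The labels give strain numbers alone, and ploidy was taken from the study's methods and from a header line of the table. T0 was read from the frozen stock, whereas day 1 and day 28 were read from lawns of cells that grew on plates, so comparisons with T0 span culture and plating together.

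Nuclear pore complexes are ring-shaped channels in the nuclear envelope through which proteins and RNA pass between nucleus and cytoplasm. A membrane ring anchors the pore, an inner ring and outer Y-shaped complexes form its scaffold, and nucleoporins rich in phenylalanine-glycine (FG) repeats fill the channel and bind the transport receptors. Pore assembly in budding yeast is known to deteriorate in old mother cells.

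Barcode abundance is given as CPM, read counts brought to one common library size with edgeR's TMM factors (trimmed mean of M-values). Libraries held 3491412 to 6298768 counts at T0, 904993 to 1925967 at day 1 and 503569 to 1338206 at day 28, and 1 count was worth up to 2.05 CPM at day 28. The spread between replicates was small at T0 and large afterwards. As a coefficient of variation common to all plasmids it came to 11.9% (AGY1612) and 6.37% (AGY1611) in the T0 libraries, 67.6% and 70.6% at day 1, and 72.6% and 82.2% at day 28. Barcode reads carried no molecular identifiers, so counting intervals and floors below cover counting error only. A change was called at FDR < 0.1 (Benjamini-Hochberg over all 4508 plasmids) in edgeR's quasi-likelihood test, and log2 fold changes are given ± SE. The median change of all plasmids from T0 to day 28 depended on the scaling. It was 0.19 in AGY1612 and 0.16 in AGY1611 with TMM factors, 0.03 and -0.02 with RLE factors, and -0.11 and -0.14 on total counts, so changes of the members are read beside these medians.

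Nuclear pore plasmids started at unequal levels. At T0 in AGY1612, mean abundance ran between 4.66 CPM for NUP42 and 422 CPM for POM34 among the 27 tested. POM34 exceeded 93.2% of all tested plasmids there, and NUP42 exceeded 0.266%. None of the 28 members with counts was at 0 in any T0 library. At day 28, between 4 and 9 of the 28 (14.3% to 32.1%) were at 0 in a library of AGY1612, and between 3 and 11 (10.7% to 39.3%) in a library of AGY1611. Over all plasmids with counts, 11.4% to 15% were at 0 at day 28 in AGY1612 and 8.63% to 17.9% in AGY1611. The summed abundance of the members was 4834, 3530.5 and 3677 CPM at day 28 in AGY1612, against 3319.7, 3562 and 3534 CPM at T0. In AGY1611 it was 5512, 4574 and 3214 CPM at day 28, against 3494, 3525 and 3392 CPM at T0. The day 28 and T0 libraries overlapped in this sum in both strains, while single members moved far apart.

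**Figure D1:**
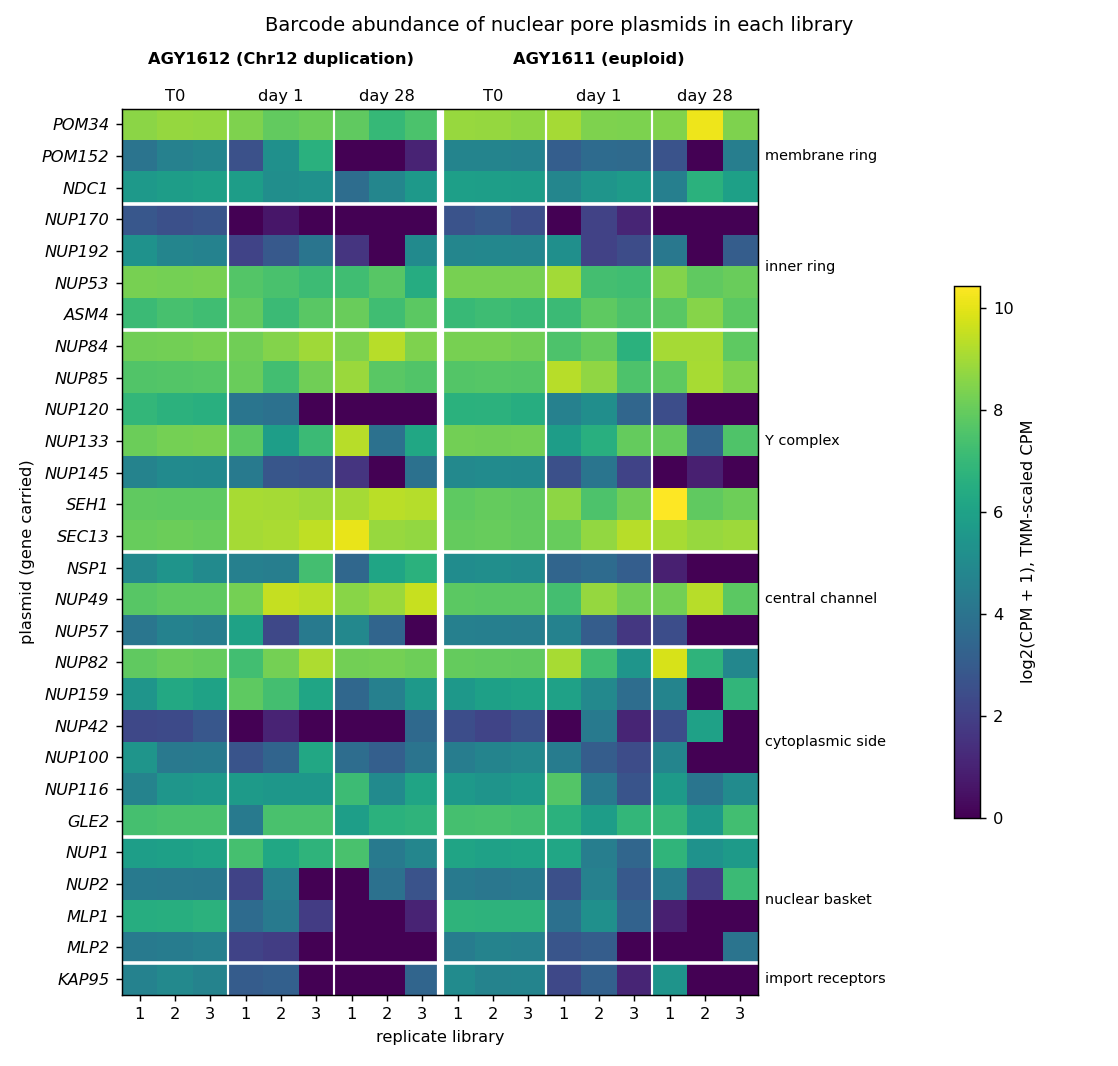
Abundance of the 28 nuclear pore plasmids with counts, 1 row per plasmid grouped by place in the pore and 1 column per library, with AGY1612 on the left and AGY1611 on the right. Colour is log2(CPM + 1). No member is at 0 at T0, whereas 4 to 9 members in AGY1612 and 3 to 11 in AGY1611 are at 0 in the day 28 libraries (darkest cells).

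Between T0 and day 28, 8 of the 27 tested nuclear pore plasmids changed in AGY1612 and 5 of 27 in AGY1611. In AGY1612, SEH1, SEC13 and NUP49 rose by 1.25 to 1.36 on the log2 scale, and POM34, POM152, NUP120, MLP1 and MLP2 fell. In AGY1611, SEH1 rose, and NUP120, NUP145, NSP1 and MLP1 fell. Of all 4508 plasmids, 19.9% were called in AGY1612 (6.99% rose and 12.9% fell) and 14.6% in AGY1611 (5.12% rose and 9.49% fell). The members' shares were 29.6% in AGY1612, with 11.1% rising and 18.5% falling, and 18.5% in AGY1611, with 3.7% rising and 14.8% falling. The median log2 fold change of the members was -0.89 in AGY1612 and -0.30 in AGY1611, below the medians of all plasmids given above. SEH1, NUP120 and MLP1 were called in both strains, each in the same direction, which was 37.5% of the calls in AGY1612 and 60% of those in AGY1611. Over all tested plasmids, 381 were called in both strains, which was 42.4% of the calls in AGY1612 and 57.8% of those in AGY1611, so the members' overlap was close to that of all plasmids. In AGY1612, 5 members were higher and 12 lower at day 28 with no overlap between the libraries, against 21.1% and 27.3% of all plasmids. In AGY1611, 3 were higher and 9 lower without overlap, against 20.8% and 25.4% of all plasmids. Leaving out any T0 library reduced the calls in AGY1612 to 5, and leaving out day 28 replicate 1 raised those in AGY1611 to 9. A plasmid abundant at T0 could pass the filter through its T0 counts alone, and a scarce plasmid through its later counts alone. At T0 in AGY1612, NUP42 had a mean of 4.66 CPM and NUP170 of 5.53 CPM. NUP42 passed through later libraries alone, whereas NUP170, with no count at day 28, did not pass. The calls, shares and medians thus cover the 27 tested members and not all 32, and they leave out NUP170.

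The split between rises and falls moved with the scaling. In AGY1612, 3 members rose and 5 fell with TMM factors, and 1 rose and 6 fell with RLE factors or on total counts. In AGY1611, 1 rose and 4 fell with TMM factors, and none rose and 4 fell with RLE factors or on total counts. The rises lost were those of SEH1 in both strains and of NUP49 in AGY1612. Over all plasmids in AGY1612, falls were 64.9% of the calls with TMM factors, 75.4% with RLE factors and 85.2% on total counts, and in AGY1611 they were 64.9%, 80% and 87.4%. The falls of NUP120 and MLP1 in both strains, of POM34, POM152 and MLP2 in AGY1612 and of NUP145 and NSP1 in AGY1611 were called under all 3 scalings. With limma voom, NUP192, NUP133, NUP145 and KAP95 also passed as falls in AGY1612 (FDR 0.00721 to 0.0956), and POM152, NUP57, NUP100, MLP2 and KAP95 as falls and SEC13 as a rise in AGY1611 (FDR 0.0148 to 0.0919).

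**Figure D2:**
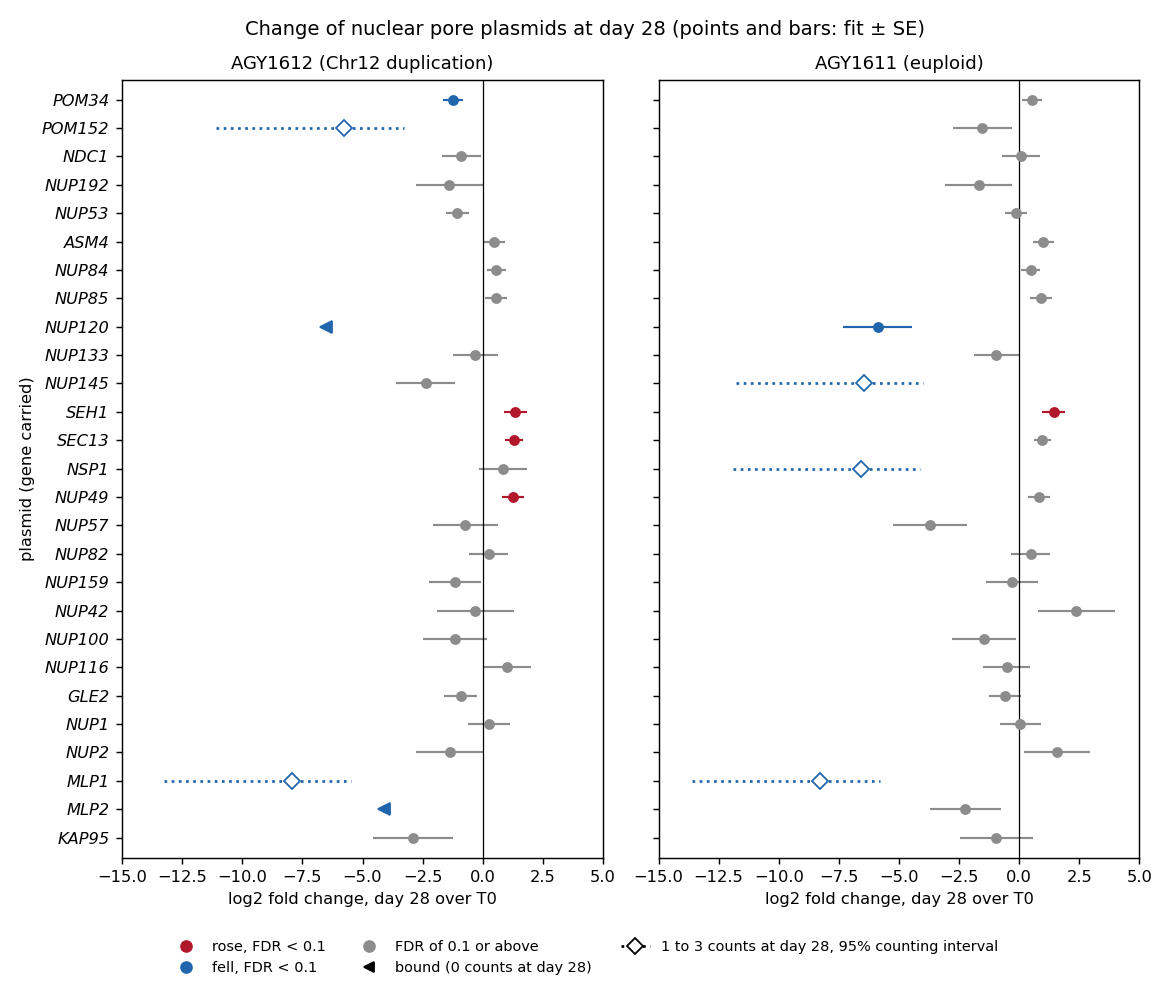
Change of the 27 tested nuclear pore plasmids at day 28 over T0 in AGY1612 (left) and AGY1611 (right), as fitted log2 fold change ± SE. Plasmids with 0 counts at day 28 are drawn at the bound that 3 counts over the group allow, and those with 1 to 3 counts as the ratio with its 95% counting interval. NUP120 and MLP1 lie far to the left in both strains, and SEH1, SEC13 and NUP49 are the red points of AGY1612.

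The membrane ring is built from POM34, POM152 and NDC1, proteins that span the pore membrane. POM34 (YLR018C) is on chromosome XII, so AGY1612 carried an extra genomic copy of it besides the plasmid. In AGY1612, POM34 was at 398, 442 and 427 CPM at T0, 338, 242 and 269.8 CPM at day 1, and 238, 126 and 181 CPM at day 28. In the euploid strain AGY1611 the values were 449, 439.7 and 407 CPM at T0, 517, 338 and 335 CPM at day 1, and 357, 1166 and 342 CPM at day 28. All 3 day 28 libraries of AGY1612 lay below all of its T0 libraries, whereas in AGY1611 1 library was far above T0 and the others below it. POM34 fell in AGY1612 (log2 fold change -1.22 ± 0.42, FDR = 0.0568) and changed by 0.53 ± 0.41 in AGY1611 (FDR = 0.452). The difference between the strains was -1.75 ± 0.59, which did not pass over all plasmids (FDR = 0.429). The call in AGY1612 was lost when any T0 library or day 28 replicate 2 or 3 was left out (FDR 0.115 to 0.246, with -0.86 without day 28 replicate 2), and without day 28 replicate 2 the change in AGY1611 was -0.20.

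POM152 (YMR129W, chromosome XIII), the partner of POM34 and the main protein of the ring around the pore membrane, was nearly lost in AGY1612. It was at 15.1, 22.9 and 26.0 CPM at T0, 4.97, 37.2 and 98.0 CPM at day 1, and 0, 0 and 1.08 CPM at day 28, where 1 count was left over the 3 libraries. In AGY1611 the values were 25.5, 25.5 and 23.7 CPM at T0, 7.68, 11.6 and 11.1 CPM at day 1, and 5.42, 0 and 21.2 CPM at day 28. Day 28 lay below T0 in every library of both strains. In AGY1612 the ratio of day 28 to T0 was 0.0183 (95% counting interval 0.0005 to 0.103, FDR = 0.031, and 0.102 without day 28 replicate 2), and in AGY1611 the fitted change was -1.53 ± 1.23 (FDR = 0.464). NDC1, which also serves at the spindle pole body, changed by -0.89 ± 0.80 in AGY1612 and 0.09 ± 0.79 in AGY1611, neither of which passed.

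None of the tested inner ring plasmids was called at day 28. NUP192, a large scaffold protein, changed by -1.39 ± 1.39 in AGY1612 (FDR = 0.546) and by -1.69 ± 1.41 in AGY1611 (FDR = 0.482). Its day 28 libraries in AGY1612 held 1, 0 and 29 counts. It passed there without day 28 replicate 3 (FDR = 0.0839), the library that held nearly all of these counts. NUP170 (YBL079W, chromosome II) was the scarcest of the inner ring plasmids, with 34, 19 and 33 counts at T0 in AGY1612 and 38, 46 and 34 in AGY1611. It had 0, 1 and 0 counts at day 1 in AGY1612 and 0, 3 and 1 in AGY1611, and none in any of the 6 day 28 libraries. Measured against a floor of 3 counts over the group, NUP170 was at least 4.78-fold lower at day 28 than at T0 in AGY1612 and at least 5.40-fold lower in AGY1611. With no filter on low counts it passed in both strains (FDR = 0.0265 in AGY1612 and 0.0233 in AGY1611). Its paralogue NUP157 could not be set beside it.

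The inner ring paralogues NUP53 and ASM4, which bind the pore membrane, were abundant throughout. NUP53 was at 312, 308 and 315 CPM at T0, 201, 171 and 140.1 CPM at day 1, and 149.8, 212 and 86.5 CPM at day 28 in AGY1612. In AGY1611 it was at 319, 313 and 313 CPM at T0, 514, 159 and 152 CPM at day 1, and 361, 235 and 266 CPM at day 28. Every day 28 library of AGY1612 was below its T0 libraries, while those of AGY1611 lay on both sides. The NUP53 change was -1.06 ± 0.47 in AGY1612 (FDR = 0.142) and -0.13 ± 0.46 in AGY1611 (FDR = 0.892). ASM4 was at 263, 149 and 225 CPM at day 28 against 136, 169 and 150.2 CPM at T0 in AGY1612, and at 217, 378 and 223 CPM against 129, 146 and 133 CPM in AGY1611, where the groups did not overlap. The ASM4 change was 0.48 ± 0.44 in AGY1612 (FDR = 0.498) and 1.00 ± 0.44 in AGY1611 (FDR = 0.16). NUP53 passed in AGY1612 with RLE factors (FDR = 0.0961), on total counts (0.0562), with DESeq2 (0.052) and with AGY1612 fitted alone (0.0909), and ASM4 passed in AGY1611 without day 28 replicate 1 (0.086).

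The Y complex, the outer ring that coats the membrane around the pore, held plasmids that rose as well as plasmids that were nearly lost. Of its 7 plasmids, 2 rose and 1 fell in AGY1612, and 1 rose and 2 fell in AGY1611. The smallest subunits, SEH1 and SEC13, are beta-propeller proteins that also belong to the SEA complex, and SEC13 is in addition part of the COPII vesicle coat. SEH1 (YGL100W, chromosome VII) in AGY1612 was at 236, 231 and 232 CPM at T0, 532, 521 and 480.4 CPM at day 1, and 517, 649 and 627 CPM at day 28. AGY1611 had 227, 248 and 234 CPM at T0, 401, 185 and 289 CPM at day 1, and 1392, 238 and 285 CPM at day 28. The AGY1612 libraries were all above T0 by day 1 and stayed there, whereas in AGY1611 the rise lay mainly in 1 day 28 library. SEH1 rose by 1.36 ± 0.48 in AGY1612 (FDR = 0.063) and by 1.43 ± 0.48 in AGY1611 (FDR = 0.0629), and the difference between the strains was -0.07 ± 0.67 (FDR = 1). Without day 28 replicate 1 the change in AGY1611 was 0.22 (FDR = 0.724). Leaving out any T0 library gave FDR 0.160 to 0.165 in AGY1612 and 0.163 to 0.185 in AGY1611. The call was also lost with RLE factors and on total counts in AGY1612 (FDR = 0.11 and 0.176) and in AGY1611 (0.111 and 0.154), and in AGY1611 with the replicate block (0.11) and with that strain fitted alone (0.158).

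SEC13 (YLR208W) lies on chromosome XII and thus had an extra genomic copy in AGY1612. In AGY1612 it was at 256, 272 and 257 CPM at T0, 524, 555 and 705 CPM at day 1, and 1079.7, 449.7 and 424 CPM at day 28. Its AGY1611 values were 252, 261 and 240.4 CPM at T0, 260.1, 433 and 639 CPM at day 1, and 532, 460.4 and 480.0 CPM at day 28. All 3 day 28 libraries stood above all T0 libraries in both strains. SEC13 rose by 1.31 ± 0.38 in AGY1612 (FDR = 0.0257), and the change in AGY1611 was 0.97 ± 0.37 (FDR = 0.109). The difference between the strains was 0.35 ± 0.52 (FDR = 0.996). Leaving out day 28 replicate 1 reduced the change in AGY1612 to 0.86 (FDR = 0.104), and leaving out day 28 replicate 3 brought AGY1611 to 1.10 (FDR = 0.0971). SEC13 also passed in AGY1611 with at least 50 counts required in every T0 library (FDR = 0.0816), with limma voom (0.0471) and with that strain fitted alone (0.0941).

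NUP120 (YKL057C, chromosome XI), an arm of the Y, fell to 0 counts in AGY1612 and to 5 counts in AGY1611. In AGY1612 it was at 119, 104 and 96.6 CPM at T0, 15.4, 14.0 and 0 CPM at day 1, and at 0 in all 3 day 28 libraries. AGY1611 libraries held 102, 104 and 89.9 CPM at T0, 23.0, 34.9 and 9.95 CPM at day 1, and 4.52, 0 and 0 CPM at day 28. Day 1 was already below T0 in every library of both strains. Over the group, NUP120 was at least 90.7-fold lower at day 28 in AGY1612 (FDR = 0.0034, floor of 3 counts), and in AGY1611 it fell by 5.89 on the log2 scale (SE 1.45, FDR = 0.0154). NUP145 (YGL092W, chromosome VII), whose product is cleaved into an FG nucleoporin and a Y complex subunit, was at 24.3, 31.0 and 30.4 CPM at T0, 18.8, 5.93 and 5.16 CPM at day 1, and 2.05, 0 and 14.1 CPM at day 28 in AGY1612. In the euploid strain AGY1611 the values were 29.2, 31.8 and 30.6 CPM at T0, 4.80, 15.9 and 3.32 CPM at day 1, and 0, 0.879 and 0 CPM at day 28. NUP145 fell in AGY1611, where 1 count remained (ratio 0.0113, 95% counting interval 0.0003 to 0.0631, FDR = 0.0168). In AGY1612 its change was -2.38 ± 1.22 (FDR = 0.217), which passed without day 28 replicate 3 (FDR = 0.0469).

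The remaining Y complex plasmids NUP84, NUP85 and NUP133 were not called. Their changes were 0.57 ± 0.41, 0.55 ± 0.46 and -0.32 ± 0.93 in AGY1612, and 0.47 ± 0.41, 0.90 ± 0.47 and -0.96 ± 0.94 in AGY1611. NUP133 varied widely between replicates, at 632, 14.0 and 73.5 CPM at day 28 in AGY1612 and 252, 9.67 and 189 CPM in AGY1611. In AGY1612 its change was -2.63 without day 28 replicate 1 (FDR = 0.0855) and 0.40 without replicate 2. NUP85 passed in AGY1611 without day 28 replicate 1 (FDR = 0.0961).

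**Figure D3:**
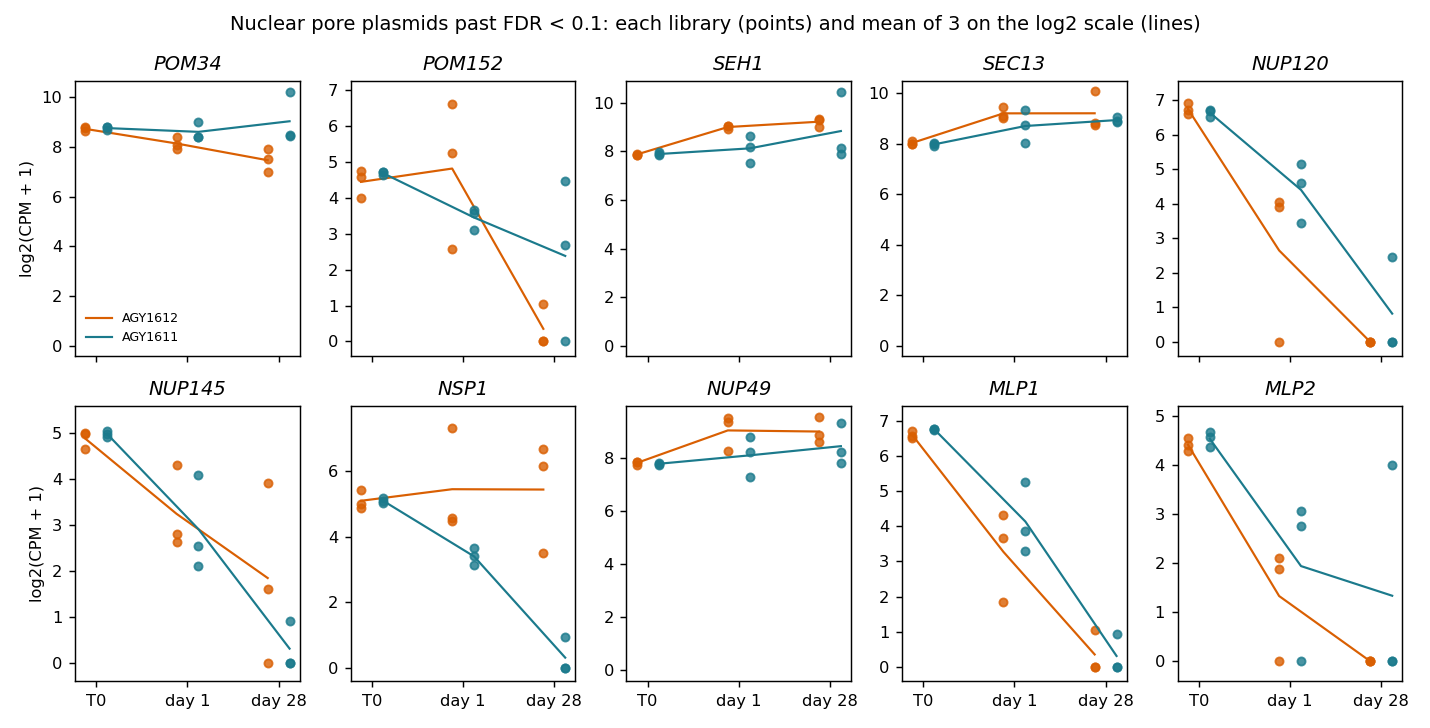
Abundance of the 10 nuclear pore plasmids called in any comparison, as log2(CPM + 1) at T0, day 1 and day 28. Points are single libraries of AGY1612 (orange) and AGY1611 (teal), and lines join the means of 3 libraries on that scale. NUP120 and MLP1 decline in both strains. NSP1 is at 10.3 to 101 CPM at day 28 in AGY1612 and at 0 to 0.903 CPM in AGY1611. Its strain difference in the change from T0 did not pass (FDR = 0.12).

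The central channel is lined by a complex of 3 FG nucleoporins, NSP1, NUP49 and NUP57. At day 28 against T0, only NUP49 of these was called in AGY1612 and only NSP1 in AGY1611. Differences between the plasmids were not tested. In AGY1612, NUP49 (YGL172W, chromosome VII) was at 212, 229.6 and 233 CPM at T0, 304, 732 and 662 CPM at day 1, and 388, 464 and 749 CPM at day 28. In AGY1611 it was at 225, 219 and 215 CPM at T0, 157, 441 and 299 CPM at day 1, and 299, 641 and 223 CPM at day 28. NUP49 stood above T0 in all day 1 and day 28 libraries of AGY1612, and its day 28 and T0 libraries overlapped in AGY1611. It rose by 1.25 ± 0.45 in AGY1612 (FDR = 0.0671), with 0.82 ± 0.44 in AGY1611 (FDR = 0.263) and a strain difference of 0.43 ± 0.62 (FDR = 0.991). The call was lost without any T0 library or without day 28 replicate 3 (FDR 0.139 to 0.184), and with RLE factors (0.114) or on total counts (0.185). NUP57 changed by -0.72 ± 1.34 in AGY1612 (FDR = 0.761) and by -3.72 ± 1.54 in AGY1611 (FDR = 0.138), where its day 28 libraries held 5, 0 and 0 counts and it passed without replicate 1 (FDR = 0.0439), with DESeq2 (0.0706), with limma voom (0.0148) and with the replicate block (0.0616).

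NSP1 (YJL041W, chromosome X), which also takes part in the cytoplasmic NUP82 complex, had the largest fitted difference between the strains among the members. It was at 28.1, 41.6 and 31.1 CPM at T0, 22.6, 21.0 and 158 CPM at day 1, and 10.3, 69.9 and 101 CPM at day 28 in AGY1612. AGY1611 had 33.1, 35.2 and 31.5 CPM at T0, 9.60, 11.6 and 7.74 CPM at day 1, and 0.903, 0 and 0 CPM at day 28. The strains overlapped at T0, and every AGY1612 library was above every AGY1611 library at day 1 and at day 28. NSP1 fell in AGY1611 (ratio of day 28 to T0 0.0103, 95% counting interval 0.0003 to 0.0578, FDR = 0.0069), and its change in AGY1612 was 0.85 ± 0.99 (FDR = 0.608). The fitted difference between the strains was 7.30 ± 1.75, a value that rests on 1 count at day 28 in AGY1611, and it did not pass (FDR = 0.12). It passed with DESeq2 (FDR = 0.00726), with limma voom (0.048), without AGY1611 day 28 replicate 1 (0.0876) and without AGY1612 day 28 replicate 1 (0.071).

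No plasmid of the cytoplasmic side was called at day 28. These genes encode the NUP82 and NUP159 platform for mRNA export, the FG nucleoporins NUP42, NUP100 and NUP116, and GLE2, which binds NUP116. Fitted changes of the 6 plasmids ran between -1.15 and 1.02 in AGY1612 and between -1.46 and 2.38 in AGY1611. NUP42 was the rarest plasmid tested among the members, at 3.83, 4.03 and 6.11 CPM at T0, 0, 1.08 and 0 CPM at day 1, and 0, 0 and 10.8 CPM at day 28 in AGY1612. Its AGY1611 values were 4.59, 3.42 and 4.88 CPM at T0, 0, 19.0 and 1.11 CPM at day 1, and 4.52, 62.4 and 0 CPM at day 28. Single libraries thus set its change, which was 2.38 ± 1.59 in AGY1611 (FDR = 0.373) and -0.31 ± 1.61 in AGY1612 (FDR = 0.92). Without day 28 replicate 2 the NUP42 change in AGY1611 was -0.66. NUP42 passed the filter on low counts through later libraries alone. For the paralogues NUP100 and NUP116, the changes were -1.15 ± 1.34 and 1.02 ± 0.98 in AGY1612, and -1.46 ± 1.34 and -0.51 ± 0.98 in AGY1611. All 3 day 28 libraries of AGY1612 held NUP100 below its T0 range, at 12.3, 7.86 and 15.1 CPM against 42.3, 17.6 and 18.2 CPM. NUP100 passed in AGY1611 without day 28 replicate 1 (FDR = 0.0222), which left it at 0 counts.

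The nuclear basket projects from the pore into the nucleus, and its filaments are made of the long coiled-coil paralogues MLP1 and MLP2. MLP1 (YKR095W, chromosome XI) was at 90.2, 93.5 and 103 CPM at T0, 11.6, 18.9 and 2.58 CPM at day 1, and 0, 0 and 1.08 CPM at day 28 in AGY1612. AGY1611 libraries held 109, 106 and 107 CPM at T0, 13.4, 37.0 and 8.85 CPM at day 1, and 0.903, 0 and 0 CPM at day 28. It was lower at each later time with no overlap between times in either strain. The ratio of day 28 to T0 was 0.0041 in AGY1612 (95% counting interval 0.0001 to 0.0227, FDR = 0.0013) and 0.0032 in AGY1611 (0.0001 to 0.0179, FDR = 0.0011). MLP2 (YIL149C, chromosome IX) was at 18.6, 20.2 and 22.6 CPM at T0, 3.31, 2.70 and 0 CPM at day 1, and 0 at day 28 in all 3 libraries of AGY1612, which was at least 17.4-fold lower than T0 (FDR = 0.0311). In the euploid strain AGY1611 the values were 19.6, 24.5 and 22.9 CPM at T0, 5.76, 7.40 and 0 CPM at day 1, and 0, 0 and 15.1 CPM at day 28, a change of -2.24 ± 1.48 (FDR = 0.369) that passed without day 28 replicate 3 (FDR = 0.037). The later libraries were below T0 for both paralogues in all 12 cases of each. The calls of MLP1, MLP2 and NUP120 in AGY1612, and of MLP1, NUP120, NUP145 and NSP1 in AGY1611, held in every alternative and with each library left out.

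The other basket plasmids, NUP1 and NUP2, were not called. NUP1, an FG nucleoporin, changed by 0.26 ± 0.86 in AGY1612 and 0.05 ± 0.86 in AGY1611. NUP2 (YLR335W), a mobile nucleoporin encoded on chromosome XII, was at 18.3, 17.9 and 17.0 CPM at T0, 3.31, 21.6 and 0 CPM at day 1, and 0, 14.0 and 5.41 CPM at day 28 in AGY1612. In AGY1611 it was at 18.6, 16.8 and 18.4 CPM at T0, 4.80, 23.3 and 6.64 CPM at day 1, and 19.9, 2.64 and 139 CPM at day 28. Its change was -1.38 ± 1.39 in AGY1612 (FDR = 0.548) and 1.58 ± 1.36 in AGY1611 (FDR = 0.502), where 1 library was far above the rest and the change was -0.54 without it. KAP95 (YLR347C), importin beta and the last member on chromosome XII, was at 23.9, 29.0 and 24.6 CPM at T0, 7.17, 8.09 and 0 CPM at day 1, and 0, 0 and 9.73 CPM at day 28 in AGY1612. AGY1611 had 32.0, 24.2 and 25.1 CPM at T0, 3.84, 8.46 and 1.11 CPM at day 1, and 41.6, 0 and 0 CPM at day 28. Its change was -2.91 ± 1.67 in AGY1612 (FDR = 0.268) and -0.95 ± 1.51 in AGY1611 (FDR = 0.742), and it passed in AGY1612 without day 28 replicate 3 (FDR = 0.0714) and in AGY1611 without day 28 replicate 1 (FDR = 0.039), the libraries that held its remaining counts. The strain differences of the 4 members on chromosome XII were -1.75 ± 0.59 for POM34, -2.95 ± 1.94 for NUP2, 0.35 ± 0.52 for SEC13 and -1.97 ± 2.19 for KAP95, and none passed.

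Day 1 was examined to see how early the plasmids had moved, although day 1 and day 28 were set against the same T0 libraries and are not independent. No member was called at day 1 against T0 in either strain with edgeR, where 2.86% of all plasmids were called in AGY1612 and 0.288% in AGY1611. At an unadjusted p below 0.05 there were 6 members in AGY1612 (22.2%, beside 21% of all plasmids) and 3 in AGY1611 (11.1%, beside 16.5%), DESeq2 called 4 and 1, and edgeR called up to 2 and 1 with 1 day 1 library left out. The 6 in AGY1612 were SEC13 (1.18 ± 0.37, FDR = 0.11), MLP1 (-3.10 ± 1.00, 0.113), NUP49 (1.33 ± 0.45, 0.12), NUP120 (-3.41 ± 1.23, 0.146), SEH1 (1.13 ± 0.48, 0.183) and MLP2 (-3.27 ± 1.52, 0.223). Each of the 6 was called at day 28 in AGY1612 in the direction it had at day 1. In AGY1611 the 3 were MLP1 (-2.44 ± 0.98, FDR = 0.235), NUP85 (1.03 ± 0.47, 0.276) and SEC13 (0.82 ± 0.37, 0.276). The median change of the members at day 1 was 0.21 in AGY1612 and -0.79 in AGY1611, beside 0.13 and 0.05 over all plasmids.

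Between day 1 and day 28, 1 member was called in each strain, or 3.7% of the members tested. Over all plasmids, 1.53% were called in AGY1612 and 0.954% in AGY1611. At an unadjusted p below 0.05 in edgeR's test there were 4 members in AGY1612 (14.8%, beside 11.4% of all plasmids). In AGY1611 there were 6 (22.2%, beside 9.52% of all plasmids). POM152 fell in AGY1612, with 0, 0 and 1 counts at day 28 against 9, 69 and 114 at day 1 (ratio 0.0098, 95% counting interval 0.0002 to 0.0555, FDR = 0.0589). MLP1 fell in AGY1611, with 1, 0 and 0 counts at day 28 against 14, 35 and 8 at day 1 (ratio 0.0175, 0.0004 to 0.101, FDR = 0.0665). Equal replicate numbers deviated together between day 1 and day 28. With the replicate number as a block over all 18 libraries, POM152 was still called and MLP1 was not (FDR = 0.123), and with the block within each strain's day 1 and day 28 libraries neither was (FDR = 0.245 for POM152 and 0.784 for MLP1). Neither was called without the block in each strain's day 1 and day 28 libraries fitted alone, or in the 12 such libraries of both strains. Fits without the T0 libraries thus lost both calls with and without the block. The POM152 call was also lost without day 28 replicate 1 or 2 (FDR = 0.133 and 0.21), and the MLP1 call without day 1 replicate 2 or day 28 replicate 2 or 3 (FDR 0.118 to 0.203). In AGY1612, MLP1 (ratio 0.032, FDR = 0.118) and NUP120 (at least 8.38-fold lower, FDR = 0.125) did not pass, and 3 members were called without day 1 replicate 3.

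Responses were compared directly between the strains as the change in AGY1612 minus the change in AGY1611. No member passed for day 28 against T0, day 1 against T0 or day 28 against day 1 with edgeR, where 0.266%, 0% and 0.222% of all plasmids passed. At an unadjusted p below 0.05 there were 2, 0 and 3 members, and DESeq2 called 1, 0 and 0. For day 28 against T0 these were NSP1 and POM34, or 7.41% of the members tested, beside 6.94% of all plasmids. For day 28 against day 1 they were POM152 (-6.51 ± 2.09, FDR = 0.337), NSP1 (4.52 ± 1.74, FDR = 0.49) and POM34 (-1.30 ± 0.59, FDR = 0.589), or 11.1% of the members tested, beside 8.07% of all plasmids. A call in 1 strain alone is therefore not shown to differ from the other strain.

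Other genes of nuclear transport were set beside the members. Of 40 such genes, 31 had rows and 28 were tested, among them further pore subunits, the Ran system, karyopherins, mRNA export factors and factors of pore assembly. None rose and 2 fell at day 28 against T0 in each strain, and their median change was -0.19 in AGY1612 and -0.13 in AGY1611. Over all plasmids, 6.99% rose and 12.9% fell in AGY1612, and 5.12% rose and 9.49% fell in AGY1611. The 2 falls were those of NUP60 and LOS1 in both strains. NUP60, a basket nucleoporin that anchors NUP2 and MLP1, had 0, 6.99 and 6.49 CPM at day 28 against 309, 312 and 323 CPM at T0 in AGY1612 (-5.97 ± 0.83, FDR = 0.000143). In AGY1611 it had 1.81, 1.76 and 0 CPM at day 28 against 307, 319 and 309 CPM at T0 (-7.83 ± 0.94, FDR = 4.3e-05). LOS1, the tRNA exportin, fell by 2.34 on the log2 scale in AGY1612 (SE 0.52, FDR = 0.00674) and by 1.60 in AGY1611 (SE 0.51, FDR = 0.0492). NUP60 also fell between day 1 and day 28 (-3.83 ± 0.77, FDR = 0.0137 in AGY1612 and -5.46 ± 0.89, FDR = 0.0052 in AGY1611).

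Gene length moved with these changes. The tested nuclear pore genes were long, with a median of 2235 bp against 1152 bp over all tested plasmids, taken as the coding length, introns included, of RefSeq (R64). In AGY1612 the 3 plasmids that rose carried genes of 894 to 1419 bp, and those that fell carried genes of 900 bp (POM34) to 5628 bp (MLP1). In AGY1611 the falls were at genes of 2590 bp (NSP1) to 5628 bp. Among all tested plasmids with genes of 3000 bp or longer, 22.9% fell in AGY1612 and 21.7% in AGY1611, and of the 10 members of that length 4 fell in AGY1612 and 3 in AGY1611. Among genes under 1000 bp, 11.5% of plasmids fell in AGY1612 and 7.16% in AGY1611. Spearman's correlation of length with the fitted change across the 27 members was -0.54 in AGY1612 and -0.69 in AGY1611, and across all 4501 plasmids with a length it was -0.11 and -0.18. These correlations are across genes of the same libraries, and long genes were also less abundant at T0, with a median of 56.5 CPM for genes of 3000 bp or longer and 207 CPM for those under 1000 bp. The part of length in the falls was not tested.

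**Figure D4:**
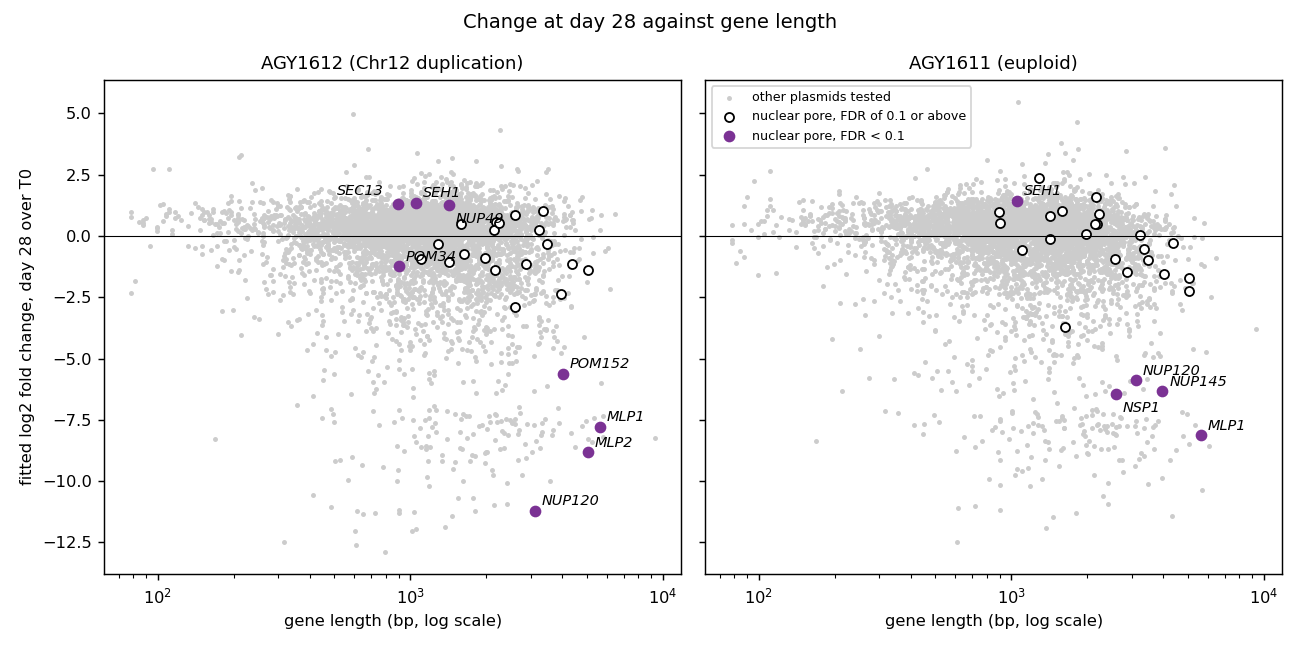
Fitted log2 fold change at day 28 over T0 against gene length (log axis) for all plasmids tested, in AGY1612 (left) and AGY1611 (right). Grey points are other plasmids, open circles are nuclear pore plasmids not called and filled circles those called, with their names; fitted values of plasmids with 0 to 3 counts at day 28 depend on the prior count of the fit. The called falls, apart from POM34 at 900 bp in AGY1612, lie at genes of 2590 bp or longer.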

How the data were processed

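Barcode sequencing of plasmids was analysed in 18 libraries. The deposited values are raw counts of barcode reads per plasmid, 1 row per plasmid and 1 column per library, which the authors made after PCR of the barcodes. The counting program is not given in the sources used here. Of the 4872 rows, 86 held no count. Systematic names linked 4865 rows to RefSeq genes (assembly R64), which supplied symbols, chromosomes and lengths. Coordinates were left out, because the sources name no build for the counts.

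The deposited counts entered edgeR 4.0.16 under R 4.3.3 (filterByExpr by group, TMM factors, 1 coefficient per group over all 18 libraries, two-sided quasi-likelihood F-tests, FDR < 0.1). The filter left 4508 plasmids. SE is the size of the log2 fold change over the square root of F. A group at 0 was set to a floor of 3 counts over the group, and 1 to 3 counts were given as a ratio with its exact 95% counting interval. The scripts were tested on simulated data. Alternatives were RLE factors, total counts, other filters, DESeq2 1.42.0, limma 3.58.1 voom with group weights, a replicate block, each strain alone, FDR < 0.05 and each library left out.

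Per-library values are given for members called in any of the 9 comparisons, for those on chromosome XII, and for the 2 largest and 2 smallest fitted changes at day 28 per strain, and paralogues were set side by side. Values of NUP170, NUP192, NUP53, ASM4, NUP133 and NUP100 were added after they were seen. Members and lists were chosen with earlier results of these data known. Replicate numbers come from the sample titles. Deviations of equal numbers correlated above 0.1 in every pair between day 1 and day 28 (0.19, 0.32 and 0.15 in AGY1612, and 0.33, 0.45 and 0.50 in AGY1611), but not between T0 and later libraries.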

Additional observations from a re-analysis of the deposited data

How the results depend on the processing

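At day 28 against T0, the number of nuclear pore plasmids called in AGY1612 was 8, with 5 at FDR < 0.05, 7 to 12 under the other alternatives and 5 to 9 with 1 library left out. In AGY1611 it was 5, with 11 by limma voom, 4 at FDR < 0.05, with RLE factors and on total counts, 5 to 6 under the other alternatives, and 4 to 9 with 1 library left out (9 without day 28 replicate 1). At day 1 against T0, 0 were called in AGY1612, with 1 on total counts, 3 with at least 50 counts in every T0 library, 4 by DESeq2, 6 by limma voom, 1 with the strain fitted alone and 0 to 2 with 1 library left out. In AGY1611, 0 were called, with 1 by DESeq2, 1 by limma voom and 0 to 1 with 1 library left out. At day 28 against day 1, 1 was called in AGY1612, with 3 by DESeq2 and 0 at FDR < 0.05, by limma voom, with the strain fitted alone, and in the fit of the 12 day 1 and day 28 libraries, and 0 to 3 with 1 library left out (3 without day 1 replicate 3). In AGY1611, 1 was called, with 3 by DESeq2 and 0 at FDR < 0.05, by limma voom and in the fit of the 12 libraries, and 0 to 1 with 1 library left out. A strain's day 1 and day 28 libraries fitted alone gave 0 in both, an alternative chosen after seeing the data. For the strain difference at day 28 against T0, 0 were called, with 1 by DESeq2, 1 by limma voom and 0 to 1 with 1 library left out, and the other strain differences stayed at 0 in all alternatives. The cause of these shifts was not tested.

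The replicate block over all 18 libraries gave 8 calls in AGY1612 and 5 in AGY1611 at day 28 against T0, where SEH1 in AGY1611 was not among them (FDR = 0.11). It gave 1 (AGY1612) and 0 (AGY1611) at day 28 against day 1, and 0 at day 1 against T0 and for all strain differences. The block within a strain's day 1 and day 28 libraries, chosen after seeing the data, gave 0 in both strains.

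Among members not called, small fitted changes at day 28 against T0 turned sign. NUP82 was -0.051 on total counts in AGY1612, and -0.52 by limma voom and -0.083 with the replicate block in AGY1611. NUP1 was -0.52 by limma voom and -0.34 with the replicate block in AGY1612. In AGY1611 it was -0.12 with RLE factors, -0.22 on total counts, -0.094 with no filter, -0.12 by DESeq2, -0.080 by limma voom and -0.21 with the replicate block. NDC1 in AGY1611 was -0.10, -0.24, -0.066, -0.10, -0.16 and -0.025 under these 6 settings in the same order. With 1 library left out, fitted changes in AGY1612 ran between -1.29 and 0.89 for NUP1, -2.63 and 0.40 for NUP133, -6.72 and 0.46 for NUP42, -1.95 and 0.028 for NUP57, and 0.19 and 0.40 for NUP82. In AGY1611 they ran between -0.39 and 0.58 for NDC1, -0.46 and 0.43 for NUP1, -2.05 and 0.38 for NUP159, -0.54 and 2.22 for NUP2, -0.66 and 3.04 for NUP42, -0.25 and 0.11 for NUP53, -1.74 and 1.15 for NUP82, and -0.20 and 0.92 for POM34. Of 164 levels compared, 44 moved by more than 1 SD on total counts, 43 of them at T0. Depth limits the scarce plasmids most, since 1 count at day 28 was worth up to 2.05 CPM and NUP42 began at 4.66 CPM in AGY1612.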
